A study of Mus musculus with 16 samples.

Results

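The miR-29 family was measured in 16 small RNA libraries of mouse mesenchymal stem cells. Its members were taken as the 4 annotated hairpins Mir29a, Mir29b-1, Mir29b-2 and Mir29c, out of 1174 miRNA hairpins in the GENCODE annotation. Adapter-trimmed reads of 18 to 26 nt that matched these hairpins without mismatch were summed by name and split by arm, which gave 6 arms of 577 counted. All 6 passed the minimum of 20 reads in total.

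The cells were of the C57BL/6 strain, with 2 libraries in each of 8 groups. Wild-type libraries (WT) came from Dicer f/f cells and knockout libraries (KO) from Dicer -/- cells, both transfected with mCherry, a red fluorescent protein. The remaining groups were Dicer -/- cells transfected with human Dicer (hsDicer) or with one of its mutants. Dicer has a pair of cutting domains: RNase IIIA, hit by D1320A, cleaves the 3p strand of a hairpin, and RNase IIIB, hit by D1709A, the 5p strand. The D1320A/D1709A mutant carries both changes. K70A is a change of the helicase, and Y971A/Y972A changes PAZ, the domain that holds the end of the hairpin. Libraries are named by group and replicate number (WT 1, WT 2). The labels do not state whether replicates were separate cultures, so p-values measure only the spread between these libraries, which may be technical. The labels also do not state which promoter drives the transfected Dicer, how much of it the cells made, or whether the cells were a clone.

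A miRNA is cut from its primary transcript as a hairpin, and Dicer then removes the loop and frees the 5p and 3p arms, of which one usually enters an Argonaute protein. The target choice of the loaded strand rests mainly on its seed, bases 2 to 8 from the 5′ end. The miR-29 family acts through its 3p arms, which repress transcripts of collagens and other matrix proteins and of DNA methyltransferases. It is known in mesenchymal cells as a brake on fibrosis.

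Mature sequences are shown because the arms of the family share a seed on one strand and not on the other. They come from the RefSeq table (build GRCm38.p6), which matched all 4 hairpins, and capitals mark the seed.
miR-29a-3p: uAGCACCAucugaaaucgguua
miR-29b-3p: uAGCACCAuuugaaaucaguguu
miR-29c-3p: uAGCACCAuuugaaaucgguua
miR-29a-5p: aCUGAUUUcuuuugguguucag
miR-29b-1-5p: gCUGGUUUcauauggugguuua
miR-29b-2-5p: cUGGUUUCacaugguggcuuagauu
miR-29c-5p: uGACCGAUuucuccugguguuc
The 3 different 3p sequences hold 1 seed, AGCACCA, and no other mature miRNA in the table holds it. The seeds of the 4 5p sequences differ from one another, and that of miR-29b-2-5p, UGGUUUC, is also held by miR-6338. Counted from the 5′ end, miR-29a-3p and miR-29c-3p differ by 1 substitution, C10U, and miR-29a-3p differs from miR-29b-3p by C10U, G18A, U21G and A22U. The 2 miR-29b hairpins give the same 3p sequence, so its reads cannot be divided between them, whereas their 5p arms differ.

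The 4 hairpins lie in 2 pairs. On chromosome 6, minus strand, Mir29a lies at 31062660 to 31062747 and Mir29b-1 at 31063023 to 31063093, 275 bases apart, and Mir29b-1 overlaps an exon of the long non-coding RNA Gm27019 by 2 bases. On chromosome 1, plus strand, Mir29b-2 lies at 195037040 to 195037120 and Mir29c at 195037547 to 195037634, 426 bases apart. Both of the latter lie wholly inside an exon of the non-coding transcript A330023F24Rik on the same strand, and opposite an exon of Cd46 on the other strand. The coordinates are on GRCm38.

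The libraries held 10331036 (KO 1) to 20502254 (WT 2) inserts of 15 nt or more, and levels are reads scaled to them as CPM. All miRNA arms together made up 42.4% ± 6.99 of inserts in WT, 0.919% ± 0.884 in KO and 26.2% ± 16.7 in hsDicer (SD, n = 2). Reads were 41 nt long in every replicate 1 and 51 nt in every replicate 2. Counts per distinct insert were clumped: in 6 of the replicate 1 libraries they peaked between 2048 and 16383 reads, in D1709A 1 at 128 to 255, and elsewhere between 16 and 127. In those 6 libraries a read number in the peak can rest on 1 distinct insert. Mesenchymal marker miRNAs (miR-143, miR-145a, miR-199a, miR-214, miR-21a and miR-22) summed to 163730 CPM in WT 2 and 251790 CPM in WT 1. In any library, blood markers (4 of 5 with reads) summed to at most 21.8 CPM, pluripotent (2 of 8) to 59.4, neuronal (2 of 3) to 137, muscle (1 of 3) to 953, epithelial (2 of 5) to 6.00, miR-126a of endothelium to 673 and miR-122 of liver to 3.37 CPM. Their part in the results was not tested.

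In cells with mouse Dicer the family was almost wholly miR-29b-3p and miR-29a-3p. miR-29b-3p stood at 18898 CPM in WT 1 and 53227 CPM in WT 2, where it ranked 4th and 2nd among all arms. miR-29a-3p stood at 5591 and 3032 CPM, ranks 12 and 17. miR-29c-3p was far lower, at 4.16 and 21.8 CPM. The order miR-29b-3p, miR-29a-3p, miR-29c-3p held in both WT and both hsDicer libraries, with no overlap between neighbours. The ratio of miR-29b-3p to miR-29a-3p reads varied between replicates, at 3.38 in WT 1 and 17.6 in WT 2, and at 8.44 in hsDicer 1 and 24.2 in hsDicer 2. It was higher in replicate 2 for WT, KO, hsDicer, K70A and Y971A/Y972A, and lower in replicate 2 for the 3 catalytic mutants.

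**Figure D1:**
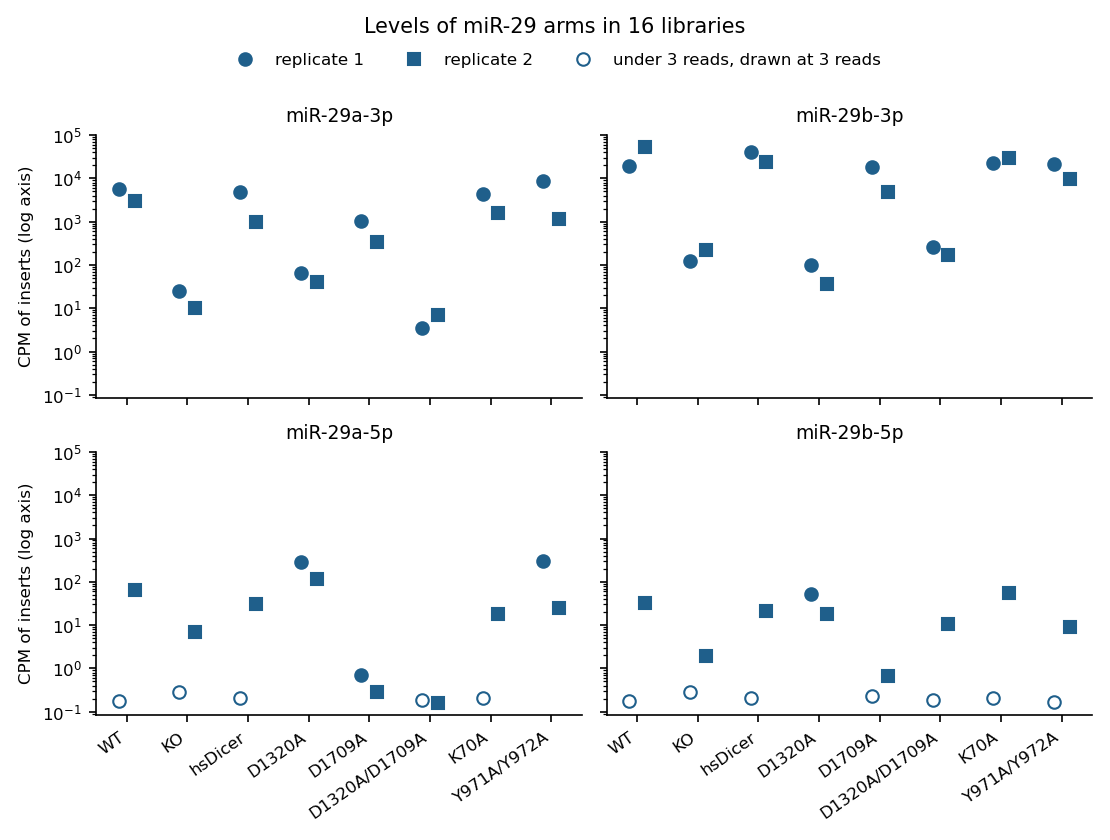
Level of 4 miR-29 arms (CPM of inserts, log axis) in each library; circles are replicate 1, squares replicate 2, and open symbols mark fewer than 3 reads, drawn at the level of 3 reads. Both 3p arms are high in WT, hsDicer, K70A and Y971A/Y972A and low in KO, D1320A and D1320A/D1709A, whereas miR-29a-5p is above 100 CPM in both D1320A libraries and in Y971A/Y972A 1 (296 CPM).

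The first question was whether the family depends on Dicer. miR-29b-3p fell from the WT levels above to 124 CPM in KO 1 and 219 CPM in KO 2. miR-29a-3p fell to 24.9 and 10.2 CPM. No KO library reached a WT library in either arm. The log2 change was -7.71 (SE 1.08, edgeR quasi-likelihood adjusted p = 2.77e-10) for miR-29b-3p and -7.94 (SE 1.85, edgeR adjusted p = 0.000923) for miR-29a-3p. Over pooled libraries these are 206-fold and 263-fold lower. 2 of 6 arms passed, against 5.74% of all 540 arms tested, and all passing arms were lower. With TMM scaling only miR-29b-3p passed (-3.28, edgeR adjusted p = 0.00942), with DESeq2 neither (-0.38 and -0.56, adjusted p = 1.0), and without KO 2 miR-29a-3p did not (-7.44, edgeR adjusted p = 0.124). The median change was -7.83 over the 6 miR-29 arms and -6.95 over all arms. Per insert the loss was not particular to the family: all miRNA arms together made up 42.4% of inserts in WT and 0.919% in KO. Relative to the median arm miR-29a-3p changed by -0.99 and miR-29b-3p by -0.76. Arms with 0 reads shared rank 159 in KO 1 and 240 in KO 2, so most of the 540 had no read there. The median change is thus set largely by arms near 0 reads, and is a poor measure for abundant arms. In hsDicer 1 that rank was 182, so medians over all arms are limited in comparisons with hsDicer too. As a share of miRNA reads the family was 5.17% and 15.0% in WT and 0.967% and 8.14% in KO. These shares overlap. In bulk libraries, fewer cells that make a miRNA and less of it per cell cannot be told apart.

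The residual 3p reads in KO had the starts of mature miR-29. All 257 miR-29a-3p reads of KO 1 and all 163 of KO 2 began at the annotated start or 1 nt before it, as did 100% and 98.9% of miR-29b-3p reads at its annotated start. In KO 1, miR-29a-3p stood at 0.266% and miR-29b-3p at 0.393% of the reads in WT 1, and in KO 2 they stood at 0.262% and 0.321% of the reads in WT 2. In replicate 1, a set of 153 inserts with 2000 or more reads in WT 1, no match to a miRNA hairpin and no read in any replicate 2 library was also found whole in KO 1, at 0.235% of its WT 1 reads. In D1320A/D1709A 1, 44 of them were found, at 0.943%, beside 0.0589% for miR-29a-3p and 1.34% for miR-29b-3p. In D1320A 1, 28 were found, at 0.00648%, beside 1.02% and 0.462%. The near match of KO 1 was thus not seen in these 2 libraries. The corresponding 86 inserts of WT 2 stood at 53.6% to 196% of their WT 2 reads in the other replicate 2 libraries, so they give no such measure for KO 2. Whether carry-over between libraries accounts for the residual was not tested.

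Human Dicer returned the family to the range of WT. hsDicer libraries held 40354 and 23678 CPM of miR-29b-3p and 4784 and 977 CPM of miR-29a-3p. Against KO, miR-29b-3p rose by 7.54 (SE 1.07, edgeR adjusted p = 5.95e-10) and miR-29a-3p by 7.36 (SE 1.80, edgeR adjusted p = 0.00219) on the log2 scale. 2 of 6 arms passed, against 5.93% of all arms. With TMM scaling only miR-29b-3p passed (3.66, edgeR adjusted p = 0.00442) and miR-29a-3p did not (3.38, edgeR adjusted p = 1.0), and with DESeq2 neither did (0.81 and 0.43, adjusted p = 1.0). The call of miR-29a-3p was also lost without KO 1 (8.14), KO 2 (6.86) or hsDicer 1 (5.80). Against WT the log2 changes were -0.17 (SE 0.804) and -0.58 (SE 1.37), and the libraries overlapped. No miR-29 arm passed there, against 0% of all arms. None reached an unadjusted p of 0.05, beside 6 of all 540 arms, and none passed with DESeq2, beside 16 of all 540.

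**Figure D2:**
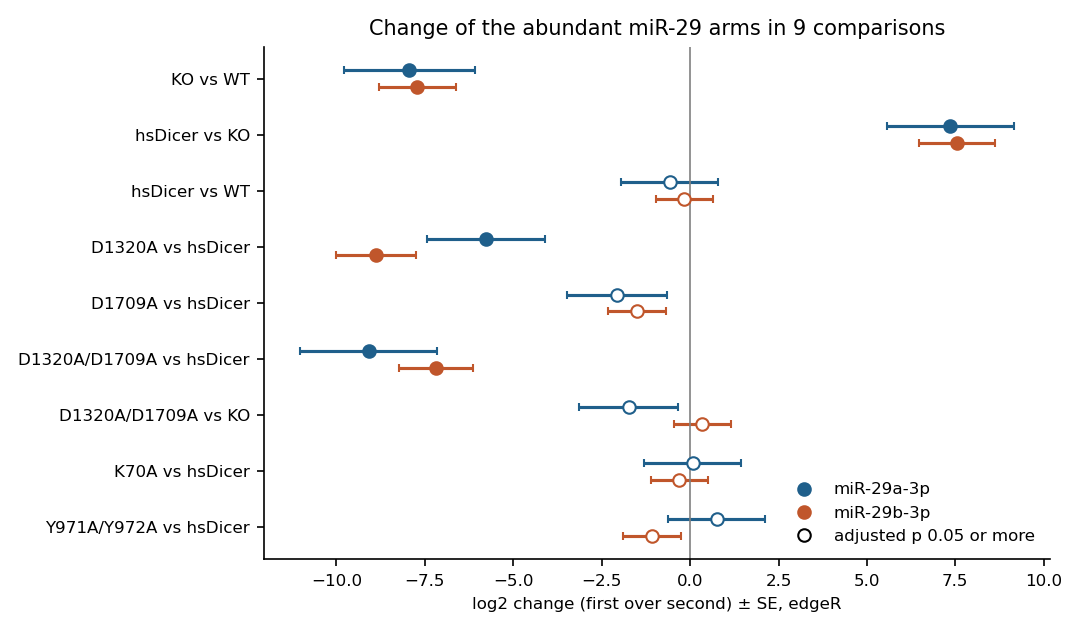
Log2 change of miR-29a-3p and miR-29b-3p in 9 comparisons, first group over second, with its standard error (edgeR, 2 libraries per group); filled points have an adjusted p under 0.05. The filled points are KO against WT, hsDicer against KO, and D1320A and D1320A/D1709A against hsDicer, with changes between -9.09 and 7.54.

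With the RNase IIIA mutant D1320A the 3p arms were nearly lost. miR-29b-3p stood at 99.9 CPM in D1320A 1 and 36.9 CPM in D1320A 2, and miR-29a-3p at 65.1 and 41.1 CPM. All 4 values lay below the lowest hsDicer library. miR-29b-3p fell by 8.87 on the log2 scale (SE 1.13, edgeR adjusted p = 1.61e-12), 431-fold over pooled libraries, and miR-29a-3p fell by 5.76 (SE 1.67, edgeR adjusted p = 0.0321), 48.4-fold. Of the 983 and 501 D1320A reads counted to miR-29a-3p, only 146 and 12 had the annotated start and 97 and 45 began 1 nt before it; the others include reads that begin in the loop, so the fold for the usual form is larger. These 2 of 6 arms passed, against 2.04% of all arms, and the median change over all arms was -0.67. miR-29c-3p had 34 and 173 reads in hsDicer and 0 and 1 in D1320A, and did not pass. The call of miR-29a-3p was lost when hsDicer 1, D1320A 1 or D1320A 2 was left out, with changes of -4.20, -6.13 and -5.47, whereas that of miR-29b-3p was kept. It was also lost with TMM scaling (-4.90, edgeR adjusted p = 0.11) and with DESeq2 (-2.69, adjusted p = 0.147), where miR-29b-3p passed (-8.31 and -6.26).

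The 5p arms were low in hsDicer and did not pass the test in D1320A. miR-29a-5p had 4370 reads in D1320A 1 (289 CPM) and 1378 in D1320A 2 (113 CPM), against 1 and 565 reads in hsDicer (0.0694 and 30.1 CPM), without overlap. miR-29b-5p had 801 and 216 reads (53.03 and 17.7 CPM), against 0 and 391 (20.8 CPM in hsDicer 2), with overlap. The 0 reads of hsDicer 1 would allow up to 0.208 CPM from counting error alone. Counts per distinct insert peaked at 4096 to 8191 reads in that library, so 0 or 1 reads there set no such bound on a low arm. miR-29c-5p had 31 and 39 reads in D1320A, against 0 and 17. The fitted log2 changes were 3.74 (SE 3.56) for miR-29a-5p and 1.76 (SE 4.30) for miR-29b-5p, and neither passed (edgeR adjusted p = 0.874 and 1.0).

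The share of 5p reads within a library is taken over totals that differ greatly: the family's level was 34929 CPM ± 14442 in hsDicer and 361 CPM ± 210 in D1320A (SD, n = 2). Of the family's reads 67.6% in D1320A 1 and 63.2% in D1320A 2 were 5p, against 0.000154% and 0.210% in hsDicer. The share in hsDicer 1 rests on 1 read in a library with clumped counts. In the other 7 groups the share was at most 5.76%. With 2 libraries against 2 the exact permutation test cannot give a 2-sided p under 0.333, and gave 0.333 here. Over all miRNA arms the 5p share was 97.3% and 96.6% in D1320A against 49.4% and 41.7% in hsDicer. In the interaction test of arm by group the log2 change of the 5p to 3p ratio was 12.03 (SE 6.19) for miR-29a and 14.10 (SE 6.03) for miR-29b, with edgeR adjusted p = 0.691 for both. No miR-29 hairpin of 3 passed, against 0% of 183 hairpins, whose median was 3.80. An unadjusted p under 0.05 was found for 1 of the 3 and for 11 of the 183. With limma at a pseudocount of 0.5, 1 of the 3 and 10 of the 183 passed. D1320A against D1709A gave 12.14 (SE 4.94) and 14.09 (SE 5.32), beside a median of 9.44 over all, again with 0 of 3 passing against 0% of all. Here 2 of the 3 had an unadjusted p under 0.05, beside 33 of the 183. With limma 1 of the 3 passed, beside 48 of the 183.

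**Figure D3:**
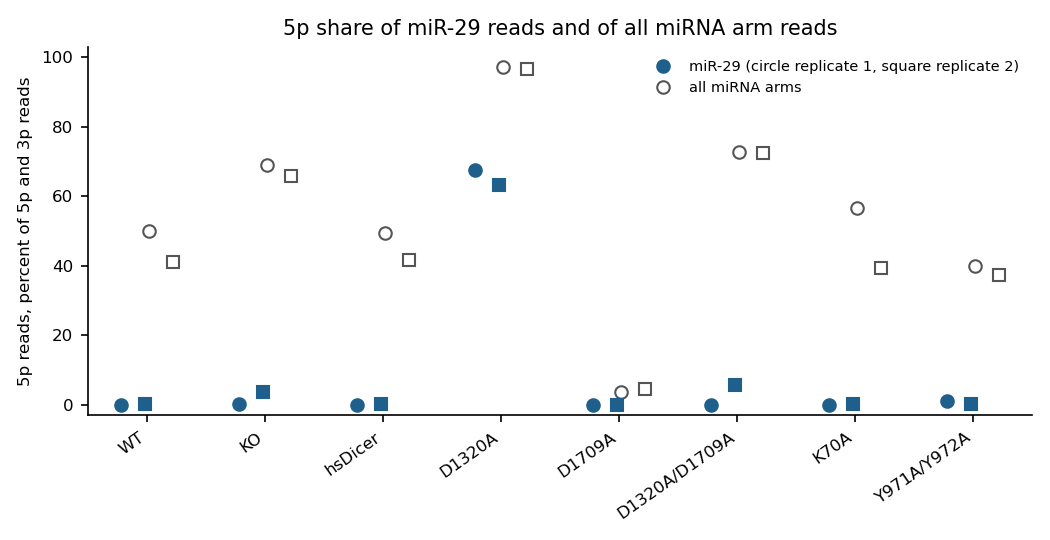
Share of 5p reads among 5p and 3p reads (percent) for miR-29 (filled) and for all miRNA arms (open) in each library; circles are replicate 1 and squares replicate 2. Only in D1320A, at 67.6% and 63.2%, does the miR-29 share exceed 5.76%, and all arms there stand at 97.3% and 96.6%.

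Reads that span the loop were found in both single mutants, on opposite sides. They are printed because each carries 1 whole arm joined to the loop, with that arm in capitals (the 5p arm to its most used end in WT). Positions count from 1 at the 5′ end of the annotated hairpin.
Mir29a, 40 to 75: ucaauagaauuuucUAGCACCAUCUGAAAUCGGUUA
Mir29a, 39 to 75: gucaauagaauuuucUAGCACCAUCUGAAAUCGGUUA
Mir29b-1, 30 to 69: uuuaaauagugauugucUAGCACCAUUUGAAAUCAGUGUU
Mir29a, 16 to 53: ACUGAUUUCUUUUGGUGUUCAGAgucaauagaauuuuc
Mir29a, 16 to 52: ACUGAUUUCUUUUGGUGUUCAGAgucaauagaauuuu
The first 3 join the loop to the 3p arm and were found in D1320A. Mir29a 40 to 75 had 1024 reads in D1320A 1 and 110 in D1320A 2, and 3 in the 14 other libraries together. Mir29a 39 to 75 had 359 and 0 reads, and 2 elsewhere. Mir29b-1 30 to 69 had 1850 and 174 reads, and 3 elsewhere. The loop side of these reads begins 1 or 2 nt behind the usual 5p ends, which are position 38 of Mir29a and position 29 of Mir29b-1.

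Summed over the family, reads of loop and 3p arm (3p end within 2 nt of the usual one and a start at least 5 nt before the 3p arm) were 3877 (257 CPM) in D1320A 1 and 551 (45.3 CPM) in D1320A 2. hsDicer held 0 and 39 (2.08 CPM), and the exact permutation p was 0.333. Under a stricter rule (exactly the 3p end most used in WT, and 10 nt before the arm) they were 1967 and 328, against 0 and 2. For Mir29a that end is position 74, so the printed Mir29a reads that end at the annotated position 75 do not meet this rule. Of the 1945 Mir29a reads in D1320A 1, 117 met it. Under the first rule, shares were taken over reads of loop and 3p arm plus freed 3p reads. Freed reads begin and end within 2 nt of the usual 3p start and end. For Mir29a 82.9% in D1320A 1 and 44.4% in D1320A 2 still had the loop, and for Mir29b-1 57.0% and 34.4%. Reads that begin between the 2 limits are in neither count, and adding them to the total would lower the shares. In D1320A, 457 and 375 reads counted to miR-29a-3p began at positions 50 to 52, which includes this stretch. In hsDicer these shares did not exceed 0.196%. KO 2, with few 3p reads, had a Mir29a share of 28.2% (64 reads against 163 freed), and a Mir29b-1 share of 0%. The next highest library for such reads was K70A 2, with 359 reads (25.8 CPM), of which 0 met the stricter rule, and D1709A 1 followed with 192, of which 3 met it. Mir29b-2 gave 0 and 51 reads of this kind in D1320A, of which 0 met the stricter rule, and 77 in WT 2.

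The last 2 sequences join the 5p arm to the loop and were found in D1709A. Mir29a 16 to 53 had 921 reads in D1709A 1 and 112 in D1709A 2, with 48 elsewhere, and Mir29a 16 to 52 had 872 and 157, with 1 elsewhere. They end 1 or 2 nt before position 54, where the annotated 3p arm begins. In all, reads of 5p arm and loop numbered 2179 (170 CPM) and 387 (37.4 CPM) in D1709A, against 0 and 46 (2.45 CPM) in hsDicer (exact permutation p = 0.333), and 133 in Y971A/Y972A 2, the next highest CPM. Mir29a gave all of the D1709A reads. Of the Mir29a 5p reads that were seen to end at either place, 99.6% and 99.2% kept the loop in D1709A. The share was 60.1% in KO 2 (104 reads against 69), 24.6% in Y971A/Y972A 2, 7.81% in WT 2, 7.53% in hsDicer 2 and at most 1.53% in the other libraries with 5p reads. For Mir29b-1 such a read would run to about the start of its 3p arm at position 47 and be over 40 nt, the longest insert seen whole in replicate 1. D1709A 2, where up to 50 nt could be seen, held 0.

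**Figure D4:**
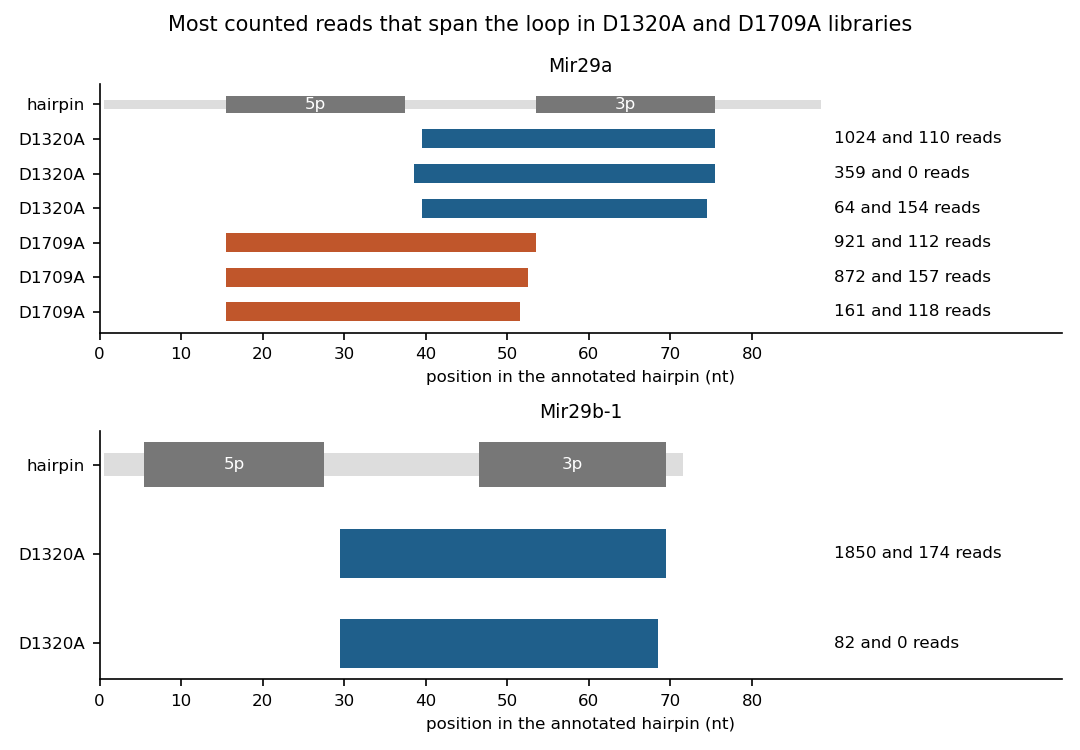
Extent of the most counted loop-spanning reads along the annotated hairpins Mir29a and Mir29b-1 (position in nt), blue for D1320A and orange for D1709A, with the reads in replicate 1 and 2 at the right and the annotated arms in grey. Blue reads begin behind the 5p arm and run to the end of the 3p arm; orange reads begin with the 5p arm and stop at the 3p arm.

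Reads that begin at the first base of the Mir29a 5p arm and run past the end of the sequencing read may come from uncut hairpins or from longer loop-spanning ones. They numbered 1914 in KO 2, 890 in hsDicer 2, 827 in D1320A/D1709A 2, 805 in D1709A 2, 368 in D1320A 2, 149 in Y971A/Y972A 2, 78 in K70A 2 and 3 in WT 2. In replicate 1, whose reads reach only position 56, they numbered 2968 in D1320A 1, 1562 in D1709A 1 and at most 1 in the other 6 libraries. Those 6 are the libraries whose counts peaked between 2048 and 16383 reads per distinct insert. Their low numbers are therefore no measure of absence. RNA of 15 to 50 nt was cut from the gel, so longer precursors were largely removed, and the 2 replicates cannot be compared for these reads.

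With the RNase IIIB mutant D1709A the 3p arms stayed abundant. miR-29b-3p stood at 18133 CPM in D1709A 1 and 4717 CPM in D1709A 2, both below the lower hsDicer library (23678 CPM), and miR-29a-3p at 1050 and 334 CPM, with overlap. The log2 changes against hsDicer were -1.49 (SE 0.821, edgeR adjusted p = 0.558) and -2.06 (SE 1.42, edgeR adjusted p = 0.837). No miR-29 arm passed, against 3.33% of all arms, and none had an unadjusted p under 0.05, beside 55 of all 540 arms. With DESeq2 2 of the 6 passed, beside 32 of all 540. The direction depended on the scaling. The median arm changed by -2.20, and relative to it miR-29b-3p stood at 0.72 and miR-29a-3p at 0.15. That median has the limit given for KO, since arms with 0 reads shared rank 240 in D1709A 1 and 253 in D1709A 2. For miR-29b-3p and miR-29a-3p the changes were 0.55 and 0.25 with TMM scaling, where the median arm stood at -0.37. With DESeq2, where the median arm stood at 0, they were 4.12 and 3.91 (DESeq2 adjusted p = 0.0474 and 0.0255). This move away from the edgeR values was larger than the shift of the median arm, and its reason was not tested. As a share of miRNA reads the family reached 25.8% and 13.5% in D1709A, against 11.9% and 17.1% in hsDicer. The 5p arms were near 0, with 9 and 3 reads of miR-29a-5p, 1 and 7 of miR-29b-5p and 0 of miR-29c-5p.

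The double mutant resembled KO in level. D1320A/D1709A libraries held 265 and 174 CPM of miR-29b-3p and 3.46 and 7.10 CPM of miR-29a-3p. Against hsDicer, miR-29b-3p fell by 7.19 (SE 1.05, edgeR adjusted p = 2.86e-09) and miR-29a-3p by 9.09 (SE 1.94, edgeR adjusted p = 0.000186) on the log2 scale, and 2 of 6 arms passed, against 7.96% of all arms. The median arm changed by -5.98, with the same limit: arms with 0 reads shared rank 147 in D1320A/D1709A 1 and 247 in D1320A/D1709A 2. With TMM scaling neither passed (-2.0 and -4.08, edgeR adjusted p = 0.457 and 0.441). With DESeq2, where the median arm stood at 0, neither passed, and miR-29b-3p stood at 1.48 and miR-29a-3p at -0.55. Against KO the changes were 0.35 (SE 0.805) and -1.73 (SE 1.40). No arm passed there, against 0% of all arms. No miR-29 arm reached an unadjusted p of 0.05, beside 9 of all 540 arms, and none passed with DESeq2, beside 45 of all 540. The KO and double mutant libraries overlapped in miR-29b-3p and not in miR-29a-3p, where both of the double mutant were lower. All comparisons with hsDicer share its 2 libraries.

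No change of a miR-29 arm passed the test for the helicase mutant K70A or the PAZ mutant Y971A/Y972A. K70A libraries held 22373 and 29483 CPM of miR-29b-3p, of which the first lies below both hsDicer libraries, and 4418 and 1617 CPM of miR-29a-3p, with log2 changes of -0.30 (SE 0.805) and 0.07 (SE 1.36). Y971A/Y972A libraries held 20845 and 9437 CPM of miR-29b-3p, both below hsDicer, with a log2 change of -1.08 (SE 0.813). Their miR-29a-3p stood at 8559 CPM in replicate 1, above every other library, and 1138 CPM in replicate 2, with a log2 change of 0.75 (SE 1.37). In each comparison the count was 0 of 6 arms with edgeR, against 0% of all arms. No miR-29 arm had an unadjusted p under 0.05, beside 2 of all 540 arms for K70A and 12 for Y971A/Y972A. None of the 6 passed with DESeq2, beside 14 and 24 of all arms. No ratio of 5p to 3p passed for K70A, Y971A/Y972A or D1709A against hsDicer, nor for hsDicer against WT, each against 0% of all hairpins. Y971A/Y972A 1 held 5229 reads of miR-29a-5p, of which 5224 ended at position 36, 2 nt before the usual end, so nearly all came from a few distinct inserts in a library whose counts peaked at 4096 to 8191 per insert. Y971A/Y972A 2 held 408, of which 33.8% ended at position 38.

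The 5′ end of miR-29a-3p was not fixed. In WT, 54.7% of its reads in replicate 1 and 25.3% in replicate 2 began 1 nt before the annotated start, at position 53 (Wilson 95% intervals 54.4 to 55.04 and 25.01 to 25.7, counting error only). The 2 forms are shown because the shift changes the seed, in capitals.
annotated start: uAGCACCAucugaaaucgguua
one base earlier: cUAGCACCaucugaaaucgguu
The earlier form has the seed UAGCACC, which no mature miRNA in the table holds. It most often ended at position 74, in 82.4% and 83.8% of its reads in WT, against 41.9% and 44.4% of reads with the annotated start, so that the mean length differed by less than 1 nt (22.2 and 22.2 against 21.6 and 21.5 nt). miR-29b-3p began at its annotated start in at least 95.5% of reads in all 16 libraries, and its share 1 nt earlier was at most 0.255%.

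The share of the earlier form differed between mutants. It was 38.0% and 32.03% in hsDicer, 62.3% and 57.5% in D1709A, 40.1% and 23.4% in K70A, and 34.2% and 30.5% in Y971A/Y972A. Both D1709A libraries lay above every other library in this share, which is taken over all miR-29a-3p reads. The means were 59.9% ± 3.43 in D1709A and 35.01% ± 4.22 in hsDicer (SD, n = 2, exact permutation p = 0.333, the smallest possible). The WT libraries, which both carry mouse Dicer, differed by more than that, so the share varied between replicates within a group too. In D1320A the share was 9.87% and 8.98%, where most of its few 3p reads began further into the loop: 46.5% and 74.9% began at positions 50 to 52, and 27.1% and 13.8% before that. Of its reads with either usual start, 97 began at position 53 and 146 at 54 in D1320A 1, and 45 and 12 in D1320A 2. On few reads, the latter is a higher ratio than in D1709A (8374 against 4900 and 1989 against 1473). In WT, KO, hsDicer, D1709A, K70A and Y971A/Y972A reads with starts at positions 50 to 52 were at most 0.0627%, and in D1320A/D1709A they were 0% and 46.7%, of 57 and 135 reads.

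**Figure D5:**
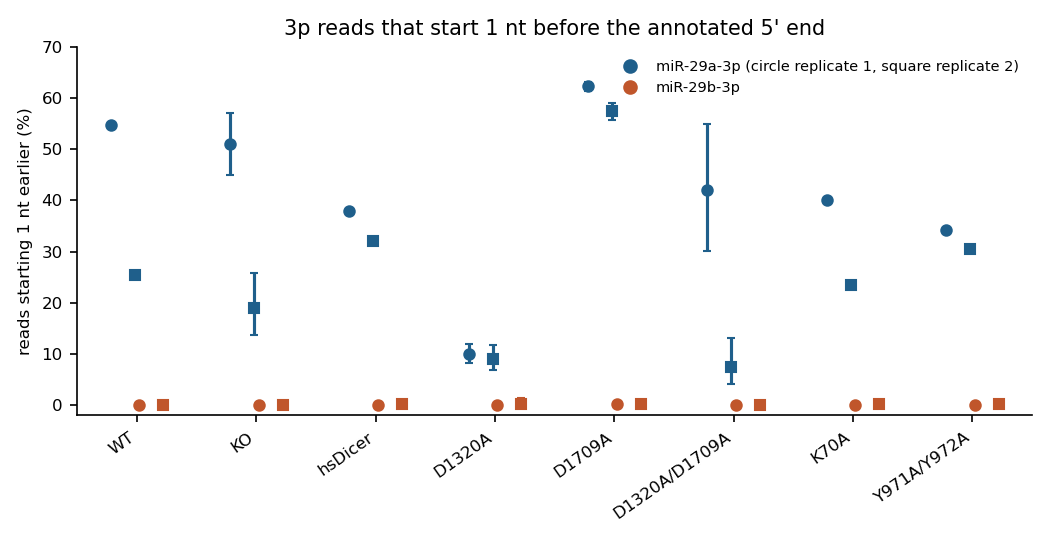
Share of reads that begin 1 nt before the annotated 5′ end (percent), for miR-29a-3p (blue) and miR-29b-3p (orange), in each library with Wilson 95% intervals; circles are replicate 1 and squares replicate 2. As a share of all its reads, miR-29a-3p is highest in D1709A (62.3% and 57.5%) and lowest in D1320A and D1320A/D1709A 2, and miR-29b-3p is at or near 0 throughout. In those low libraries many of the reads begin further into the loop and count in the total.

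The 5p arms tell the miR-29b hairpins apart. Over all libraries Mir29b-1 gave 3187 reads of its 5p arm and Mir29b-2 gave 72, of which 71 lay in K70A 2. Loop-spanning reads of the 3p arm in D1320A numbered 1932 and 235 for Mir29b-1 and 0 and 51 for Mir29b-2. Under the stricter rule they were 1850 and 174 for Mir29b-1 and 0 and 0 for Mir29b-2. WT 2 held 77 such Mir29b-2 reads under the first rule, so the 51 are not particular to D1320A. Mir29a gave 13673 reads of its 5p arm and Mir29c 272. These numbers do not give the share of miR-29b-3p that each hairpin supplied, since the 5p arms were at most 1.00% of the family's reads in WT, hsDicer, D1709A, K70A and Y971A/Y972A.

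miR-29c-3p differs from miR-29a-3p at 1 base, so misread copies of the latter could be counted to it. Among 22-nt reads that match miR-29a-3p elsewhere, U at base 10 made up 53 reads against 68152 with C in WT 1, and 165 against 37064 in WT 2. A and G at that base, which match no member, together had 7 and 43 reads. In hsDicer 2 U had 121 reads and A with G 20, and in D1709A 2 U had 107 and A with G 2. The U reads thus exceeded the other 2 bases together in every library with 1 or more of either. Whether misreading adds to miR-29c-3p was not tested further. It had 0 reads in both KO libraries, and at most 2 in D1320A and in D1320A/D1709A.

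Among the 89 other arms of 100 CPM or more on average, the level of miR-29b-3p over the 16 libraries was most like that of miR-221-3p (Pearson r of log2(CPM + 1) 0.970), miR-22-3p (0.965), miR-193a-3p (0.960), miR-423-3p (0.959) and miR-126a-3p (0.958). All 5 are 3p arms. Its r with miR-29a-3p was 0.905. For miR-29a-5p the closest were miR-17-5p (0.674), miR-193a-5p (0.658), miR-24-5p (0.615), miR-106b-5p (0.597) and miR-214-5p (0.588), all 5p arms. The libraries share their groups and their depth, and most arms fell with the loss of Dicer, so these values only rank likeness.

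Other miRNAs known to act on matrix and fibrosis were described beside the family: 14 names with 22 arms tested. In KO against WT 4 fell and none rose, in hsDicer against KO 3 rose, beside 5.74% and 5.93% of all arms. The median changes were -7.38 and 6.28, against -6.95 and 5.81 over all arms. Against hsDicer, 3 fell in D1320A, 2 in D1709A and 5 in D1320A/D1709A, and none rose, beside 2.04%, 3.33% and 7.96% of all arms. The median changes of the list were -3.0, -4.39 and -7.44, against -0.67, -2.20 and -5.98 over all arms. The medians over all arms have the limit given above, from arms near 0 reads. The 4 arms with the highest mean level did not all move alike. miR-143-3p, a smooth muscle and fibroblast miRNA, changed by -7.97 (SE 2.14, edgeR adjusted p = 0.0156) in D1320A and by -3.37 (SE 1.73, edgeR adjusted p = 0.478) in D1709A. miR-26a-5p changed by -2.47 (SE 1.33, edgeR adjusted p = 0.721) in D1320A and by -7.63 (SE 1.69, edgeR adjusted p = 0.000869) in D1709A. miR-21a-5p, raised in many fibrotic tissues, fell in both, with changes of -3.13 (SE 0.843) and -5.35 (SE 0.935) and edgeR adjusted p = 0.0156 and 6.22e-06. miR-199a-5p did not pass in any of the comparisons.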

How the data were processed

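The deposited files are counts: per the labels and the files, the authors listed each distinct read of a library with its read number, untrimmed and unscaled. RNA was extracted with Trizol and selected at 15 to 50 nt, per the labels' protocols. Aligner and build: not given in the sources used here. Adapter sequence from the labels was trimmed on a match of 12 bases, or of at least 5 at a read's 3′ end, so inserts were seen whole to 36 nt (replicate 1) and 46 nt (replicate 2). For reads matching a miR-29 hairpin, 1 to 4 adapter bases at the end were also accepted, which extended this to 40 and 50 nt. Trimmed reads (18 to 26 nt) were searched for exact matches in 1174 hairpins of GENCODE M21 (1087 names), reads shared by names were left out, and the arm was set by the side of the hairpin's midpoint.

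Levels and 5p to 3p ratios (arm by group, with a term per library) were tested by quasi-likelihood (edgeR 4.0.16, R 4.3.3) in 1 fit of the 16 libraries, 2-sided, Benjamini-Hochberg adjusted over 540 arms or 183 hairpin names, called under 0.05. Library size was inserts of 15 nt or more. The common biological coefficient of variation was 2.10 for levels. Each SE was derived from the F statistic and is approximate. DESeq2 1.42.0 and limma 3.58.1 were alternatives. Single values were compared by exact permutation. Intervals and floors of 3 reads cover counting error only, since PCR copies are not independent molecules. The tests were checked on simulated data. Counting used Python 3.11.15 (pandas 2.3.3, numpy 2.4.6), permutation scipy 1.17.1, and plots matplotlib 3.10.9.

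Members, lists, tests and the rule for named miRNAs were chosen with earlier results of these data known. The rule takes all miR-29 arms, the 5 arms of 100 CPM or more with the highest Pearson r with the most abundant 3p and 5p member, and the 4 arms with the highest mean CPM of the matrix list.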

Additional observations from a re-analysis of the deposited data

How the results depend on the processing

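With 2 libraries per group the precision is set by the spread between libraries and by the clumped counts more than by depth. The numbers of passing miR-29 arms and hairpins were the same without the filter on low counts and with the replicate block. The numbers of passing arms were also the same with reads of 15 to 30 nt and up to 2 unmatched 3′ bases, which was not run for the 5p to 3p ratios. The replicate block kept 2 passing arms in KO against WT, hsDicer against KO, and D1320A and D1320A/D1709A against hsDicer, and 0 in all other comparisons. Same-numbered libraries tended to deviate together. Their deviations correlated over 0.1 in 18 of 28 pairs of groups and under -0.1 in 0 (median 0.129, -0.023 to 0.434). Replicate number coincides with read length, and the main fit held no term for it.

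The scaling mattered most. With TMM 1 miR-29 arm passed in KO against WT, hsDicer against KO and D1320A against hsDicer, and 0 in D1320A/D1709A against hsDicer. Of all 540 arms 6, 4, 4 and 1 passed there. With DESeq2, where the median arm stood at 0, the 4 counts of miR-29 arms were 0, 0, 1 and 0. They stand beside 20, 17, 52 and 37 of all arms. In D1709A against hsDicer 2 miR-29 arms passed, beside 32 of all arms. Signs turned with TMM for miR-29b-3p in hsDicer against WT (0.39), miR-29a-3p and miR-29b-3p in D1709A against hsDicer (0.25 and 0.55) and miR-29a-3p in K70A against hsDicer (-0.71). They turned with DESeq2 for miR-29b-3p in hsDicer against WT (0.44) and D1320A/D1709A against hsDicer (1.48), and for miR-29a-3p (3.91) and miR-29b-3p (4.12) in D1709A against hsDicer. Divided by miRNA reads in place of inserts, the family's level in percent of WT was 45.1 in place of 0.480 for KO, 143 in place of 86.4 for hsDicer, 10.3 in place of 0.892 for D1320A, 194 in place of 29.98 for D1709A, 43.5 in place of 0.570 for D1320A/D1709A, 118.25 in place of 71.7 for K70A and 136 in place of 49.9 for Y971A/Y972A.

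Leaving out 1 library at a time gave 1 to 2 passing arms in KO against WT, hsDicer against KO and D1320A against hsDicer, where only miR-29a-3p was lost: in the first without KO 2 (-7.44), in the second without KO 1 (8.14), KO 2 (6.86) or hsDicer 1 (5.80). The lone library of a group was then assumed to vary like the others. The uncalled changes ranged from -2.14 to 0.15 (miR-29a-3p) and -0.73 to 0.76 (miR-29b-3p) in hsDicer against WT, from -0.83 to 1.63 and -0.64 to 0.13 in K70A, and from -1.34 to 2.31 (miR-29a-3p) in Y971A/Y972A against hsDicer. For 5p to 3p ratios limma gave 1 (pseudocount 0.5) and 2 (pseudocount 5) passing miR-29 hairpins in D1320A against hsDicer and 1 and 3 in D1320A against D1709A, in place of 0. Of all 183 hairpin names, limma passed 10 and 11 in the first and 48 and 51 in the second. With reads of 20 to 24 nt the earlier start of miR-29a-3p in D1320A was 14.3% in place of 9.42%, and the other 7 groups moved by no more than the SD between replicates. The sums of loop-spanning reads were varied by the stricter rule in place of read length. They also moved by no more than that SD, which was wide. Reads of loop and 3p arm went from 151 to 78.6 CPM in D1320A (SD 149.5) and from 12.95 to 0 in K70A (SD 18.2). The causes of these changes were not tested.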
